A study of Mus musculus with 6 samples.

Results

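Slpi and the genes Wfdc21, Wfdc5, Wfdc12 and Wfdc2 encode small secreted proteins with a whey acidic protein (WAP) domain, a compact fold held by disulfide bonds that several family members use to block serine proteases. These 5 genes were followed among 18193 genes measured in cells of mouse skin tumours. Each was represented by the probe set that the platform annotation assigns to that gene symbol alone, and each had 1 such probe set. The 5 genes were selected on family membership and on these same arrays, by their EKO minus WT differences, which were already known. Their group differences are therefore given as a description, with no test and with nothing concluded from them.

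The mice were wild type (WT) or lacked E-FABP (EKO), the fatty acid carrier of the epidermis that Fabp5 encodes, and both groups received DMBA/TPA for 5 months. DMBA is a carcinogen that mutates skin cells and TPA is a phorbol ester that promotes tumour growth, so the WT group consists of carcinogen-treated tumours and not of normal skin. Skin tumours of 3 mice per group were dissociated into cells, whose RNA was hybridised to 6 Affymetrix arrays. The labels do not name the strain, age or sex of the mice or how the allele was made.

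The values are log2 values made by RMA, which subtracts background, puts the arrays on 1 distribution and combines probes into a probe set value. A difference of 1 is therefore a doubling of signal, and array medians lay between 5.40 and 5.43. Fabp5, the targeted gene, had a mean of 14.85 ± 0.0730 in WT and fell to 8.16 ± 0.166 in EKO (SD, n = 3 per group; limma adjusted p = 1.04e-06), which matches the label of each array. It was the 1 gene of 18193 past an adjusted p of 0.05. The labels call the cells keratinocytes. Of 17 listed keratinocyte markers 16 were measured, and their mean log2 value lay between 12.47 and 12.69 in every array. Fibroblast markers had mean log2 values from 10.07 to 10.80, so the material was not keratinocytes alone. Those of macrophages ran from 7.02 to 7.53, of endothelium from 6.39 to 7.03 and of skeletal muscle from 6.14 to 9.74. All genes had mean values of 6.75 to 6.79, so the lower of these levels do not show such cells in every array. In such bulk RNA, fewer cells of a type and less RNA per cell cannot be told apart.

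Antiproteases of this family hold back the proteases that neutrophils and mast cells release, above all neutrophil elastase, cathepsin G and chymase. Slpi, the secretory leukocyte protease inhibitor, does so at mucosal surfaces and in wounded skin, where keratinocytes make it. It also has antibacterial activity and protects progranulin from cleavage by elastase. Most family genes of the mouse lie in a cluster on chromosome 2, and Wfdc17, Wfdc18 and Wfdc21 lie together on chromosome 11.

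Slpi, Wfdc21 and Wfdc2 had higher values in every EKO tumour than in any WT tumour, whereas the values of Wfdc5 and Wfdc12 overlapped between the groups. By the group means Slpi was 4.81-fold, Wfdc21 5.41-fold and Wfdc2 2.59-fold higher in EKO tumours. The corresponding ratio was 1.05 for Wfdc5 and 0.914 for Wfdc12. In all, 3 of the 5 genes showed no overlap with EKO higher. Over all genes 5.78% did so, and 0.269% did so with a log2 difference of at least 1. The choice of the genes used this contrast, so the count is read no further. None of the 5 passed the limma fit across all genes at an adjusted p of 0.05, against 0.0055% of all genes.

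**Figure D1:**
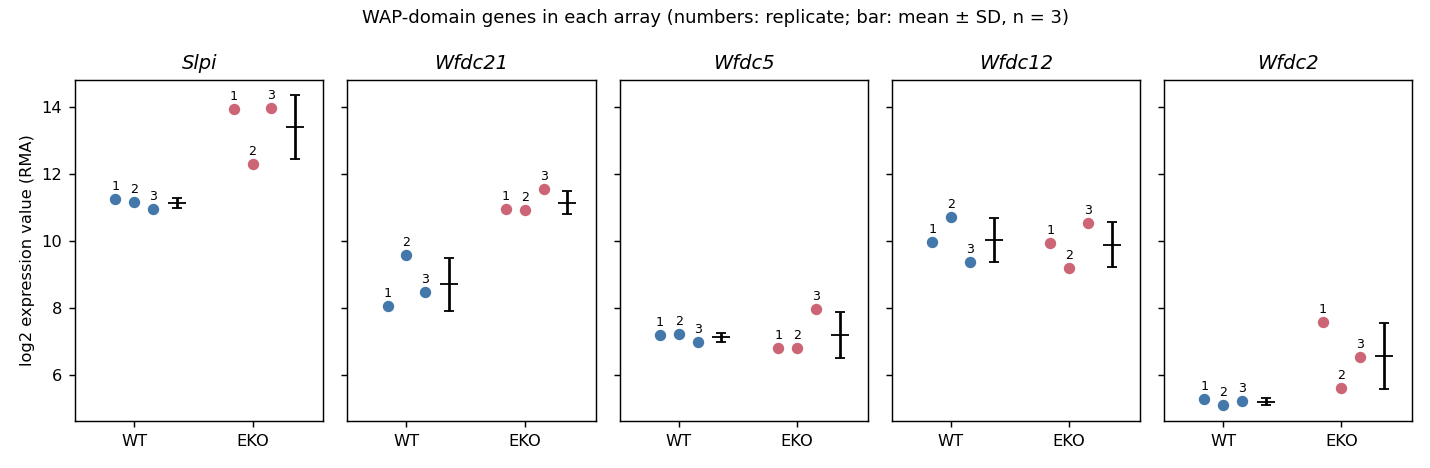
Log2 expression value (vertical axis, RMA) of the 5 WAP-domain genes in each array, WT in blue and EKO in red. Numbers give the replicate, and the bar beside each group is its mean ± SD (n = 3). The 3 EKO values of Slpi, Wfdc21 and Wfdc2 lie above all WT values of the same gene, and those of Wfdc5 and Wfdc12 do not.

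Slpi had log2 values of 11.26, 11.17 and 10.97 in WT replicates 1, 2 and 3. In EKO replicates 1, 2 and 3 it read 13.93, 12.30 and 13.96. The WT tumours were close together, the EKO tumours were all higher, and EKO replicate 2 lay below the other EKO tumours by more than the whole WT range of 0.291. The lowest EKO value stood 1.05 above the highest WT value. Group means were 11.13 ± 0.149 in WT and 13.40 ± 0.949 in EKO (SD, n = 3 each), a log2 difference of 2.27 with a 95% interval of 1.27 to 3.26. The signal of this probe set was already at percentile 94.9 to 96.0 of all genes in the WT arrays. In EKO replicates 1 and 3 it reached percentile 99.7.

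Wfdc21, listed in the annotation also as Wdnm1-like, is a short secreted member of the family. It read 8.05, 9.59 and 8.49 in WT replicates 1, 2 and 3. Its EKO values were 10.96, 10.93 and 11.54. Here the WT tumours varied more than the EKO tumours, with SDs of 0.793 and 0.345, which is the opposite of Slpi. The lowest EKO value stood 1.34 above the highest WT value, that of WT replicate 2. The means were 8.71 in WT and 11.14 in EKO, a log2 difference of 2.44 (95% interval 1.54 to 3.34). EKO replicate 2, the lowest EKO tumour for Slpi, differed little from EKO replicate 1 for Wfdc21.

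Wfdc2, also named HE4, is made by glandular epithelia and is known as a serum marker of ovarian cancer. Its values were 5.30, 5.09 and 5.23 in WT replicates 1, 2 and 3, below the array medians. They were 7.59, 5.62 and 6.53 in EKO replicates 1, 2 and 3. The groups did not overlap, but EKO replicate 2 stood only 0.324 above the highest WT value. Of the 3 genes with higher EKO values, Wfdc2 had the widest EKO range, 1.97 against 1.65 for Slpi and 0.610 for Wfdc21. Its means were 5.21 ± 0.104 in WT and 6.58 ± 0.986 in EKO, a log2 difference of 1.37 (95% interval 0.347 to 2.40). The arrays carry no detection calls, and low values are compressed by RMA, so the size of this difference is not exact.

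Wfdc5 and Wfdc12 are neighbours at the edge of the chromosome 2 cluster. Wfdc5 read 7.18, 7.23 and 6.97 in WT and 6.80, 6.81 and 7.98 in EKO replicates 1, 2 and 3. EKO replicate 3 was the highest of the 6 arrays, while EKO replicates 1 and 2 were below every WT tumour. The log2 difference of the means was 0.07, with a 95% interval of -0.658 to 0.795. Wfdc12, whose protein has antibacterial activity, read 9.98, 10.71 and 9.38 in WT and 9.92, 9.21 and 10.55 in EKO replicates 1, 2 and 3. The groups covered nearly the same range, 1.33 in WT and 1.34 in EKO. Its log2 difference was -0.13 (95% interval -1.11 to 0.853), which does not show that the groups are alike.

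The 5 genes varied among the arrays in different ways. Slpi and Wfdc2 had a Pearson r of 0.922 over the 6 arrays, and 0.823 after the mean of each group was subtracted. Slpi and Wfdc21 had an r of 0.866, which was 0.206 after that subtraction. Wfdc5 and Wfdc12 had 0.696 and 0.713. The arrays fall into 2 groups of 3, so these values describe the 6 arrays and are given with no p.

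**Figure D2:**
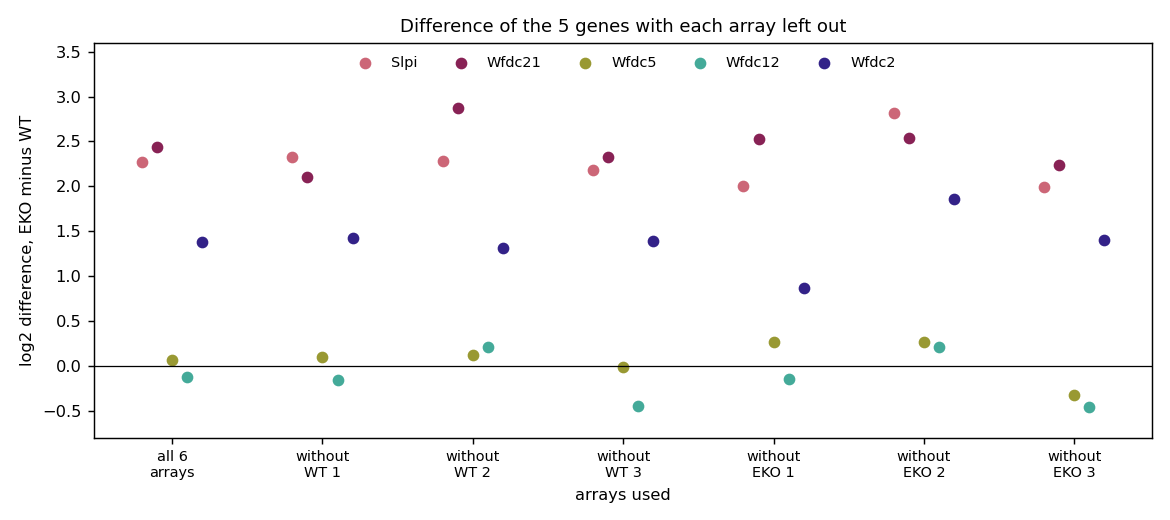
Log2 difference (EKO minus WT, vertical axis) of the 5 genes with all 6 arrays and with each array left out in turn (horizontal axis). Slpi, Wfdc21 and Wfdc2 stay above 0 at every position, with values from 0.870 to 2.88, and Wfdc5 and Wfdc12 lie on both sides of 0. For Slpi, Wfdc21 and Wfdc2 the groups did not overlap, so leaving out an array could not turn the sign.

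EKO replicate 2 had a large part in the spread of Slpi. The EKO range of Wfdc2 ran from replicate 2 to replicate 1, and Wfdc21 varied more among the WT tumours. Without EKO replicate 2 the log2 difference was 2.82 for Slpi, 2.54 for Wfdc21 and 1.85 for Wfdc2. Slpi alone of the 5 was then past the threshold over all genes, which is no test, since this contrast chose the genes and the array was picked out after its low value was seen. Without EKO replicate 1 the difference of Wfdc2 was 0.870. EKO replicate 2 was the lowest EKO tumour for 44 of the 49 genes that had no overlap and a log2 difference of at least 1 with EKO higher. Slpi, Wfdc21 and Wfdc2 are themselves among these genes, and the share over all genes was not counted.

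The upstream sequences of Slpi and Wfdc2 are shown because both genes had higher values in EKO tumours, and that of Wfdc12 because its values did not separate the groups. RefSeq promoter sequences (build GRCm38.p6) matched 3 of the 5 genes. Each line gives the 250 bases before the annotated start, on the strand of the gene. Slpi lies at chr2:164356508-164356757 on the minus strand, Wfdc2 at chr2:164562465-164562714 on the plus strand and Wfdc12 at chr2:164190559-164190808 on the minus strand. Capitals mark matches to any of 8 short motifs searched on both strands.
Slpi: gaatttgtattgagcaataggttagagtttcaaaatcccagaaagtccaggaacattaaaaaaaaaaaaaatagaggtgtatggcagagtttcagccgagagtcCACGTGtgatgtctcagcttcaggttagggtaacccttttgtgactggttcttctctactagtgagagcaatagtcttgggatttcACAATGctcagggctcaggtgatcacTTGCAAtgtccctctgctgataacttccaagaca
Wfdc2: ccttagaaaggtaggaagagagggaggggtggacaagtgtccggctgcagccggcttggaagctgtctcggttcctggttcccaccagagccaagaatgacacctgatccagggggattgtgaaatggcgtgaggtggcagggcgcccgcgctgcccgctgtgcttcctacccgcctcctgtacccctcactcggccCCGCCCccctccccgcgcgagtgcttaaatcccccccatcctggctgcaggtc
Wfdc12: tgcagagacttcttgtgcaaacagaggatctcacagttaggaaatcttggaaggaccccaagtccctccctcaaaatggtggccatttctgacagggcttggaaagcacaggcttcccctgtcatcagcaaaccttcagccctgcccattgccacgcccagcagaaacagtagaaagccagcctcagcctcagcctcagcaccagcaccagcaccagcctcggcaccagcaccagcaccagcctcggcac

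The Slpi window held 3 of these motifs, with no overlap between them. The letters of an E-box, CACGTG, lay 146 to 141 bases before the start and are found in 6.02% of all 32851 promoter windows of that length. Those of a SOX motif, ACAATG, lay at 60 to 55 and are found in 10.7% of windows. Those of a C/EBP motif, TTGCAA, lay at 34 to 29 and are found in 5.34%. The Wfdc2 window, with a GC content of 64.8% against 42.0% for Slpi, held the letters of an SP1 motif, GGGCGG on the other strand, 53 to 48 bases before the start, as do 32.7% of windows. The AP-1 motif TGANTCA, found in 6.75% of windows, was in none of the 3. The same held for the TATA box letters TATAAA, which 12.4% of windows contain. It also held for the STAT motif TTCNNNGAA at 7.02% and, in 1.79% of windows, the grainyhead motif AACNGGTT. None of the 8 motifs was found in the Wfdc12 window. No motif was shared by the Slpi and Wfdc2 windows. A match describes letters only, not a bound site.

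Neighbours of Slpi and Wfdc2 on chromosome 2 had smaller differences. In gene order from Kcns1 to Dnttip1 the annotation lists 34 protein-coding genes, of which 24 were measured. Between Slpi and Wfdc2 lie 7 measured genes, among them Sdc4, a cell surface proteoglycan with a log2 difference of 0.05, and Pigt, a subunit of the enzyme that attaches lipid anchors to proteins (0.10). Their log2 differences ran from -0.36 for Matn4 to 0.20 for Dbndd2. The 15 measured genes of the segment that are not WAP genes had a median of 0.03. Of these, Svs2, Svs4, Svs6, Trp53tg5 and Spint4 had both group means below the lower quartiles of the arrays, 3.90 to 3.96. A difference cannot be read there. None of the 15 passed the limma fit over all genes, nor did Slpi or Wfdc2.

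**Figure D3:**
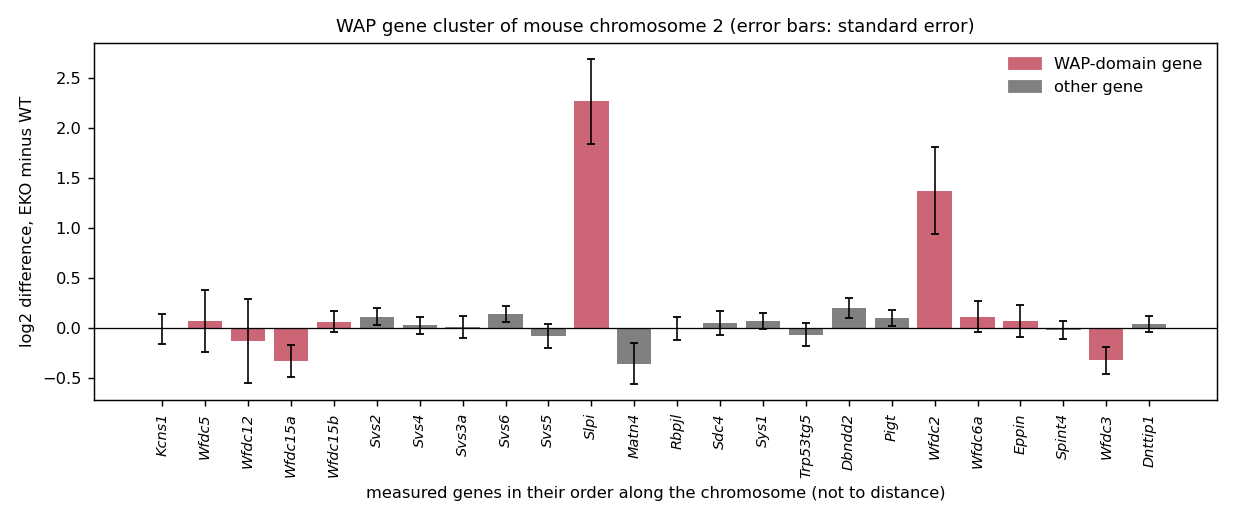
Log2 difference (EKO minus WT, vertical axis, error bars are standard errors) of the 24 measured genes from Kcns1 to Dnttip1 in their order along chromosome 2, WAP-domain genes in red. Slpi (2.27) and Wfdc2 (1.37) stand out from the genes beside and between them, which lie from -0.36 to 0.20. Svs2, Svs4, Svs6, Trp53tg5, Spint4 and Wfdc6a had group means below the lower quartiles of the arrays, where a difference cannot be read.

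The rest of the WAP family had smaller differences as well. Of 18 other listed family genes 11 were measured, 6 with higher and 5 with lower EKO means and a median log2 difference of 0.03, beside 0.00014 for all genes. By limma 0 of the 11 passed over all genes. At an unadjusted p of 0.05, 1 was higher (3.44% of all genes) and 2 were lower (3.7% of all genes), and 7.13% of all genes were past it in either direction. Wfdc17, which activated macrophages express, read 9.57, 9.05 and 9.55 in WT and 8.92, 8.17 and 9.09 in EKO replicates 1, 2 and 3. Its difference, -0.66 (adjusted p = 0.667), had the opposite sign to that of Wfdc21 (2.44). Wfdc18, between them on the chromosome, had a difference of 0.35, but its probe set is of the type that can match several transcripts. Beyond these genes lie chemokine genes that draw leukocytes, of which Ccl3 differed by 1.65 with overlap, Ccl4 by 0.50 without overlap, Ccl6 by -0.38, Ccl9 by -0.54 and Ccl5 by -0.09. Heatr6, on the other side of Wfdc21, differed by 0.11 without overlap. These neighbours were chosen by position, and none of them passed over all genes by limma.

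In the chromosome 2 cluster, Wfdc3 had a log2 difference of -0.32 with its brighter probe set and 0.23 with its dimmer one, so its probe sets disagree. Wfdc15a had -0.33, Wfdc15b 0.06, Wfdc6a 0.11 and Eppin, an inhibitor of the sperm surface, 0.07. Wfdc6a lay below the lower quartile of all 6 arrays, between 3.90 and 3.96, where a difference cannot be read. The relatives outside the clusters were Wfdc1 (-0.0050), the milk protein gene Wap (0.03), Wfikkn1 (0.30) and Wfikkn2 (-0.15). Wfikkn1, which encodes a secreted antagonist of myostatin, was the 1 of these 11 genes without overlap, with EKO higher, beside 5.78% of all genes.

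Proteases that Slpi and its relatives can meet were followed in 2 lists. Of 18 leukocyte and mast cell serine proteases 15 were measured, 8 with higher and 7 with lower EKO means and a median of 0.01. Elane, Ctsg and Cma1, the genes of elastase, cathepsin G and chymase, differed by -0.02, 0.12 and -0.08. The mean log2 value of the list, 4.78 to 5.01 in WT and 4.75 to 5.05 in EKO, lay below the array medians. In every array 2 of the genes were below the lower quartile, so a median near 0 says little. By limma 0 passed over all genes, and at an unadjusted p of 0.05 there was 1 in each direction, beside 3.44% of all genes higher and 3.7% lower. These were the granzyme gene Gzmc, which read 5.43, 5.18 and 4.80 in WT and 3.98, 4.45 and 4.47 in EKO (difference -0.83, adjusted p = 0.602), and the basophil protease gene Mcpt8 (0.75). Mcpt2, a mast cell protease, read 6.07 in EKO replicate 3 and lay below the lower quartile in 4 of the 6 arrays, all WT arrays among them, so the size of its difference cannot be read.

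Of 21 serine proteases of epithelia 20 were measured, 8 with higher and 12 with lower EKO means and a median of -0.07. None passed over all genes by limma, and at an unadjusted p of 0.05 there were 1 higher and 5 lower, beside 3.44% and 3.7% of all genes. Klk7, a kallikrein that loosens the horny layer and that Slpi can inhibit, read 14.15, 14.26 and 14.11 in WT and 13.66, 13.94 and 13.76 in EKO replicates 1, 2 and 3. The groups did not overlap, and the difference was -0.38 (adjusted p = 0.621). Klk6 differed by -0.69 (adjusted p = 0.523), also without overlap, and the membrane-anchored protease gene Prss27 by -0.66. The difference farthest from 0 in this list went the other way, 1.51 for Tmprss11d, an airway-type transmembrane protease singled out after its value was seen. No overlap with EKO lower was seen for 3 of the 20 genes, and for 6.19% of all genes.

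Other families of protease inhibitors lacked the large positive differences of Slpi and Wfdc21. Among 15 measured serpins, 8 had higher and 7 lower EKO means, with a median of 0.01 and a highest difference of 0.68. Serpina3n had the smallest p of the list, with 8.43, 7.64 and 8.50 in WT and 7.03, 7.06 and 7.08 in EKO (difference -1.13, limma adjusted p = 0.546). It passed without WT replicate 2 (-1.41, limma adjusted p = 0.0476), with a range over the alternatives of 0.0476 to 0.998. WT replicate 2 held its lowest WT value, so no call is read from that fit. Serping1, the inhibitor of complement C1, differed by -0.82 and Serpinb6c, with a probe set of a type that can match several transcripts, by -0.55. Cystatins, stefins and Kunitz or Kazal inhibitors had 6 higher and 10 lower means among 16 measured genes, a median of -0.03 and a highest difference of 0.29. Cst3, which encodes cystatin C, differed by -0.34 without overlap, Cst6 by -0.46 and Rarres1 by -0.85. By limma 0 genes of these 2 lists passed with all 6 arrays, and at an unadjusted p of 0.05 there were 2 of the 15 serpins and 1 of the 16 other inhibitors, all lower, beside 3.7% of all genes.

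Partners of Slpi and the transglutaminases that crosslink proteins of the horny layer gave 9 measured genes, 3 higher and 6 lower by their means, with a median of -0.06. None passed with all 6 arrays by limma, and at an unadjusted p of 0.05 there was 1 in each direction, beside 3.44% of all genes higher and 3.7% lower. Tgm3, a transglutaminase of the hair follicle and upper epidermis, read 8.96, 9.13 and 9.43 in WT and 11.60, 9.57 and 12.07 in EKO replicates 1, 2 and 3. As for Slpi, EKO replicate 2 was the lowest EKO tumour and the groups did not overlap. Its difference was 1.91 (limma adjusted p = 0.625). Without EKO replicate 2 the difference was 2.66 and passed (limma adjusted p = 0.0107), with a range over the alternatives of 0.0107 to 0.998. In that fit 42 genes passed, and the array was singled out after its low values were seen, so no call is read. Tgm5 differed by -0.56 and Tgm2, with a probe set of a type that can match several transcripts, by -0.50.

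Lists of signals known to induce Slpi in epithelia, with a few of their inhibitors, had medians near 0, with single genes farther out in both directions. The 14 measured ligands, which include the receptor antagonist Il1rn, had a median of 0.04, and 0 were past an unadjusted p of 0.05 by limma. Nrg1, a ligand of the ERBB receptors, differed by 0.67, and the cytokine genes Il17a and Il1a by -0.25 each, while Il1b, singled out after its value was seen, differed by 0.51. The 19 receptors and adaptors had a median of -0.03. Among them Il6st, the shared receptor subunit of the interleukin 6 family, differed by -0.64 and Il1rap by -0.34, while Traf6, an adaptor of interleukin 1 and Toll-like receptor signalling, differed by 0.38. The 22 genes of the transcription factor list, which also holds the NF-kappaB inhibitors Nfkbia and Nfkbib, had 8 higher and 14 lower means. Their median was -0.07, with Rel, an NF-kappaB subunit, at -0.68, Cebpd at -0.38 and Stat3 at -0.34. At an unadjusted p of 0.05 there were 1 higher and 2 lower receptors and adaptors and 1 lower factor, beside 3.44% of all genes higher and 3.7% lower, and 0 genes of these 3 lists passed over all genes by limma.

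Genes of epithelial antimicrobial defence mostly had lower EKO means, unlike Slpi. Of 19 measured genes 15 had lower EKO means, beside 9088 of all 18193 genes, and the median was -0.12. In every array 2 of the 19 lay below the lower quartile, where a difference cannot be read. The median of the list was -0.27 without WT replicate 3, -0.06 without WT replicate 1 and -0.45 over the list genes in the upper 50% of means. Defb4, a beta-defensin, was the exception by size, with 8.34, 8.56 and 8.94 in WT and 11.56, 9.48 and 11.66 in EKO replicates 1, 2 and 3. Like Slpi, it separated the groups and was lowest among the EKO tumours in replicate 2. Its difference was 2.29 (limma adjusted p = 0.616), and it was 3.00 without EKO replicate 2. The beta-defensin Defb6 (-0.51) and the ribonuclease Rnase4 (-0.60) separated the groups with EKO lower. By limma 0 of the 19 passed when every array was kept, and at an unadjusted p of 0.05 there were 1 higher and 3 lower, beside 3.44% and 3.7% of all genes.

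**Figure D4:**
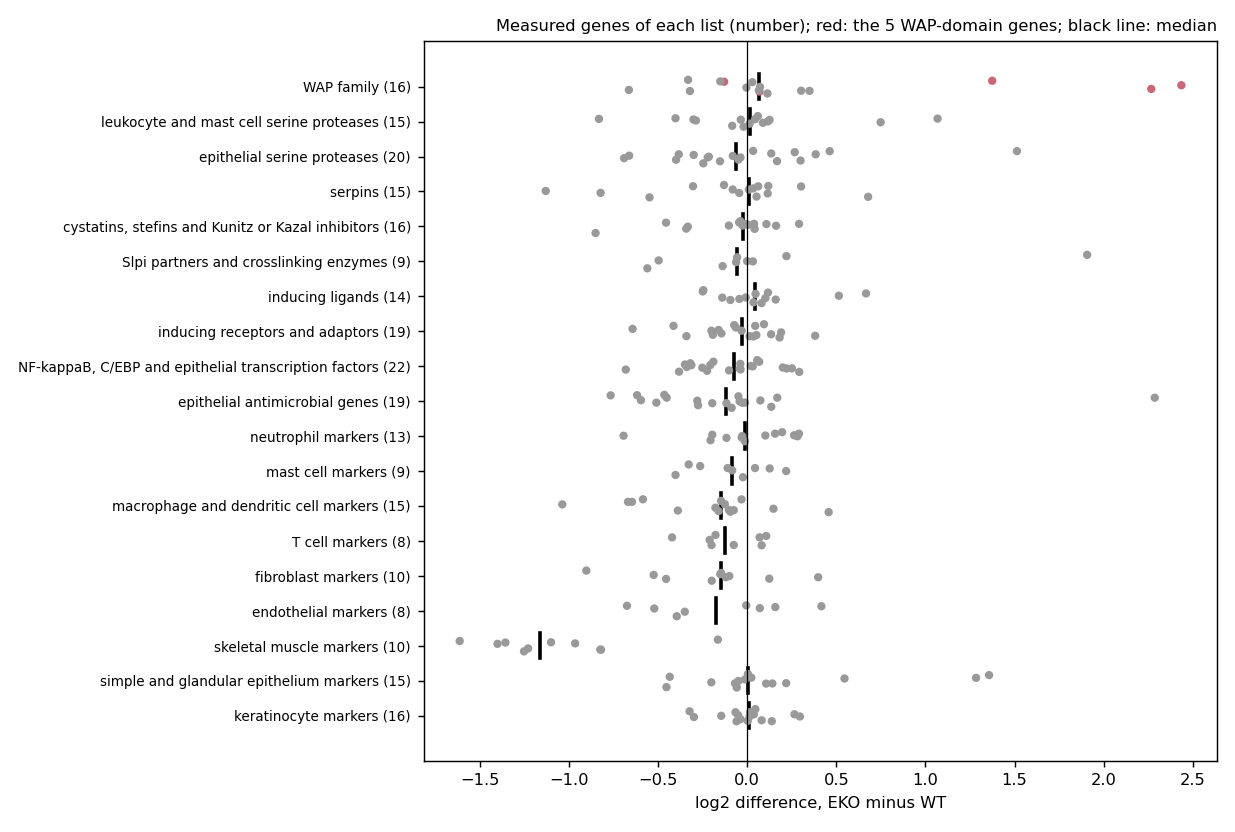
Log2 difference (EKO minus WT, horizontal axis) of every measured gene of each list, with the number of genes in brackets, the 5 WAP-domain genes in red and the list median as a black line. Medians lie between -0.18 and 0.07 except that of the skeletal muscle markers (-1.17), and the single genes farthest to the right are Wfdc21 (2.44), Defb4 (2.29) and Slpi (2.27).

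Neutrophils and macrophages can also express genes of this family, so their markers were set beside the values of Slpi and Wfdc21. Of 13 measured neutrophil markers 6 had higher and 7 lower EKO means, with a median of -0.01. Their mean log2 value ran from 6.92 to 7.03 in WT and from 6.79 to 7.15 in EKO tumours, with the lowest value in EKO replicate 2 and the highest in EKO replicate 3. Mmp8, a neutrophil collagenase, differed by -0.69, the receptor gene Csf3r by 0.29 and S100a9, which keratinocytes of tumours express as well, by -0.20. Of 15 measured macrophage and dendritic cell markers 13 had lower EKO means, beside 9088 of all 18193 genes, and the median was -0.15. The mean log2 value of these markers ran from 7.33 to 7.53 in WT and from 7.02 to 7.29 in EKO tumours. Mrc1, the macrophage mannose receptor, differed by -1.04, C1qc by -0.65 and C1qa by -0.59, all without overlap. No overlap with EKO lower was seen for 5 of these 15 genes and for 6.19% of all genes. The scale has no true 0 and the arrays no detection calls, and the part of these cells in the values of Slpi and Wfdc21 was not tested.

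Markers of simple and glandular epithelium, which expresses Wfdc2 and Slpi, had a median of 0.0034 over 15 measured genes, with a mean log2 value of 5.16 to 5.34 in WT and 5.37 to 5.45 in EKO tumours. In every array 2 of the 15 lay below the lower quartile, where a difference cannot be read. The water channel gene Aqp5 had a difference of 1.36 and Prom1 one of -0.44, both without overlap, and Krt18 one of 1.28 with overlap. Their part in the values of Wfdc2 was not tested. The 9 measured mast cell markers had a median of -0.08, the 8 T cell markers one of -0.13, the 10 fibroblast markers one of -0.15 and the 8 endothelial markers one of -0.18. The 16 keratinocyte markers had a median of 0.01. The 10 skeletal muscle markers, with a median of -1.17, varied most among the arrays, from 6.14 in WT replicate 2 to 9.74 in WT replicate 1. Their part in the values of Slpi and Wfdc21 was not tested. Their median was -0.20 without WT replicate 1 and -2.15 without WT replicate 2. By limma 0 genes of the 9 marker lists passed over all genes.

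The genes most like Slpi over the 6 arrays were taken from 783 genes with a mean in the upper 50% and a range of at least 1. They were Slc25a24 (r = 0.987), Kcnn4 (0.982), Prkg2 (0.982), Ttc9 (0.981), Mtap (0.981), Dsc2 (0.975), Defb4 (0.975) and Pitx1 (0.973). Such an r over 2 groups of 3 arrays is high for any gene that separates the groups and dips in EKO replicate 2, and it is given with no p. Slc25a24 encodes a mitochondrial carrier of adenine nucleotides, Kcnn4 a calcium-activated potassium channel and Prkg2 a cGMP-dependent kinase. Prkg2 read 5.89, 6.22 and 6.16 in WT and 9.31, 7.04 and 9.84 in EKO replicates 1, 2 and 3. Its log2 difference was 2.64, and that of the homeobox gene Pitx1 was 2.52. None of the 8 passed over all genes with all 6 arrays by limma (adjusted p from 0.549 to 0.621). Since likeness to Slpi includes the low value of EKO replicate 2, no call is read for them from a fit without that array.

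The genes most like Wfdc21 were others: Nuak2 (r = 0.953), Lce1m (0.938), Aqp5 (0.930), Pfkfb3 (0.927), Gsto1 (0.927), Rab26os (0.924), Tubb3 (0.917) and Tubb2b (0.915). No gene stood in the nearest 8 of both Slpi and Wfdc21. The probe sets of Lce1m and Gsto1 are of types that can match several transcripts. Lce1m, a gene of the late cornified envelope, read 7.90, 8.40 and 7.89 in WT and 8.74, 9.10 and 9.77 in EKO replicates 1, 2 and 3, and it was the 1 gene of these 8 that was not lowest among the EKO tumours in EKO replicate 2. The other 7, like Wfdc21 by a small margin, were lowest there. Pfkfb3, an enzyme that drives glycolysis, differed by 0.71 and Nuak2, a kinase of the AMPK family, by 0.70. None of the 8 passed over all genes by limma (adjusted p from 0.546 to 0.621).

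**Figure D5:**
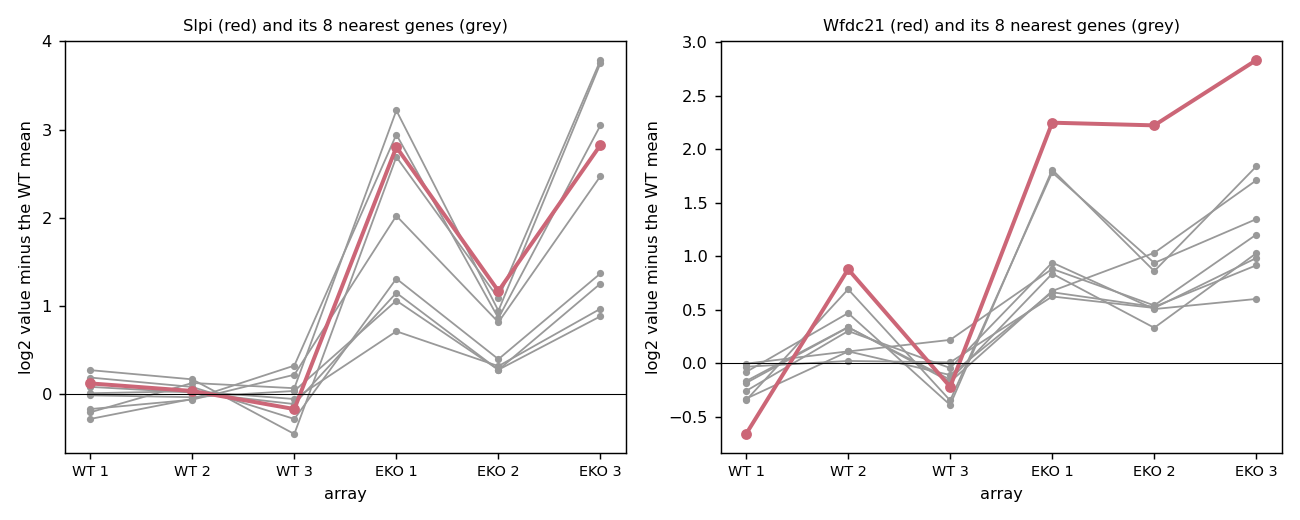
Log2 value minus the WT mean (vertical axis) in each of the 6 arrays (horizontal axis) for Slpi and its 8 nearest genes, left, and for Wfdc21 and its 8 nearest genes, right, with lines joining the values of 1 gene and no order among replicates. The genes on the left are lowest among the EKO arrays in EKO replicate 2, and Wfdc21 on the right differs little between EKO replicates 1 and 2.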

How the data were processed

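RNA of 6 tumour samples, 3 WT and 3 EKO, was measured on 1-colour Affymetrix arrays, each sample on its own array. The authors deposited log2 expression values. The submitters' processing notes name RMA and Partek 6.6. They were used as deposited. Control probe sets (64 of 45101) were left out, and 34945 probe sets with 1 gene symbol were reduced to 18193 genes by the highest mean over the 6 arrays. No filter on low values was set.

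Groups were compared with lmFit and eBayes of limma 3.58.1 under R 4.3.3 (two-sided, Benjamini-Hochberg adjustment over all genes), checked on simulated data. Differences are EKO minus WT, standard errors and 95% intervals are those of limma, and 3 arrays per group limit the precision. Titles call the replicates biological.

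The members and the 19 gene lists (260 of 306 genes measured) were chosen with earlier results of these data known. Named were the members, their measured family and, in the lists described by single genes, the 3 genes of smallest unadjusted p. The 8 nearest genes by Pearson r to Slpi and Wfdc21 were named too, predicted genes skipped. Mast cell, T cell, fibroblast, endothelial, skeletal muscle and keratinocyte markers are given as whole lists, with no single genes. Elane, Ctsg and Cma1 were added as the genes of proteases introduced at the start. Genes between Kcns1 and Dnttip1 were taken by position, and chromosomal order came from RefSeq (GRCm38.p6). Alternatives were a replicate block, the upper 50% of means, repeated quantile normalization, centred medians, array weights, robust variances with a trend on intensity, the probe sets of a gene averaged, and each array left out.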

Additional observations from a re-analysis of the deposited data

How the results depend on the processing

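Only 3 arrays per group and no detection calls limit these values. The number of genes past the threshold was 1 under each alternative that kept all 6 arrays, and ran from 1 to 42 with 1 array left out, highest without EKO replicate 2 (38 higher, 4 lower) and 2 without WT replicate 2. Genes without overlap numbered 2178, 1278 when only the upper 50% of means were tested, and 3484 to 4877 with 1 array left out, where fewer samples make non-overlap easier. With 1 array left out the log2 difference ran from 1.99 to 2.82 for Slpi, 2.11 to 2.88 for Wfdc21, 0.870 to 1.85 for Wfdc2, -0.32 to 0.27 for Wfdc5 and -0.46 to 0.21 for Wfdc12. The first 3 were positive under every alternative that gave a value, and the sign of Wfdc5 also turned with array weights (-0.03). For the first 3 the groups did not overlap, so leaving out an array could not turn their sign. Wfdc2 is not in the upper 50% of means and has no value there. Among the members 0 passed except without EKO replicate 2, where 1, Slpi, did, a contrast that chose the members. Deviations of same-numbered WT and EKO arrays from their group means correlated at -0.0741, -0.0887 and -0.340. Deviations within a group of 3 sum to 0, so these values cannot show whether the numbers pair the samples. With the replicate block 1 gene passed, as without it.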
